A study of Mus musculus with 10 samples.

Results

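The cytosolic ribosomal protein genes encode the proteins of the ribosome that works in the cytoplasm. They were taken from the deposited RNA table by symbol: Rpl or Rps followed by a number, with an optional a or x, together with Rplp0, Rplp1, Rplp2 and Rpsa. This gave 77 of 23370 gene symbols, 46 for the large and 31 for the small subunit. The rule itself uses symbols only, but it was set with earlier results of these data known. RPKM gives the reads per kilobase of a transcript after scaling to the depth of the library. For the 9 symbols with several transcripts, the one of highest mean RPKM was used.

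RNA was sequenced from mouse embryonic fibroblasts (MEFs), connective tissue cells grown out of embryos, in 10 libraries. All cells were of the C57BL/6 strain and carried the H3.3b-HA knock-in, in which a cDNA for an HA-tagged histone H3.3 stands in place of the H3f3b locus, so no group has the wild-type allele. The labels give a naive arm and a pretreated arm, each with a single library at 0, 1, 2, 4 and 6 h. Interferon-beta, a secreted antiviral cytokine, is given for the whole series at 100 U per ml. The column headers call the pretreated arm PreIFN, so the pretreatment is read as interferon. No label gives its type, dose or washout, or how many animals or cultures the cells came from. No library is labelled as unstimulated after 0 h. The hours are read as time after interferon-beta was added, and a change with time cannot be told apart from time in culture or handling.

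A ribosome needs each of its proteins in about equal number, and the mRNAs for them are among the most abundant of a growing cell. Most begin with a run of pyrimidines directly at the cap, the terminal oligopyrimidine (TOP) tract, through which growth signals that pass through the kinase mTOR set how much of the mRNA is translated. Type I interferons change both transcription and translation in fibroblasts, and several of their best known products act on translation. RNA levels, which were measured here, do not show how much of a ribosomal protein mRNA was being read.

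The start regions of 7 of the genes are shown because the TOP tract lies there. These genes span log2 changes at 2 to 6 h from -1.01 for Rps26 to 0.27 for Rps24. Each is a stretch of 30 bases on the strand of the gene, 10 before and 20 from the transcription start onward, from RefSeq on GRCm38.p6, with the longest run of C and T that opens with C in capitals. The first 4 genes fell at 2 to 6 h and the last 3 did not pass the test.
Rps26, chr10:128626487-128626516, minus strand: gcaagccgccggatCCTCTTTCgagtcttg
Rps10, chr17:27635225-27635254, minus strand: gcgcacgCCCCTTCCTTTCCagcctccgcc
Rps27, chr3:90213629-90213658, minus strand: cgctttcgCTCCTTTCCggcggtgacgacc
Rpl28, chr7:4792955-4792984, plus strand: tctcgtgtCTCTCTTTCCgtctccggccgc
Rps24, chr14:24490668-24490697, plus strand: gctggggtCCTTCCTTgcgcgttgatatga
Rpl15, chr14:18270967-18270996, minus strand: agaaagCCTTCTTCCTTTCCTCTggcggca
Rpl27a, chr7:109519185-109519214, plus strand: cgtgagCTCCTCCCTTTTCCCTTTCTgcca
The capitals show pyrimidine runs of at least 8 bases at or next to the start in these 7 genes, which do not stand for all. In the same window the longest run was 3 bases in Rpsa, Rps15, Rps16, Rps28, Rpl24 and Rpl27, which also fell. It was 3 bases too in Rpl4, Rpl5 and Rpl13, which did not pass the test. RefSeq promoters were found for 56 of the 77 genes, but not for Rpl30, which rose at 2 to 6 h. A run of at least 7 bases of C and T that opens with C, on the strand of the gene between 20 bases before and 50 after the start, was found in 45 of these 56 (80.4%), against 32.9% of all 27025 genes of the promoter table and 32.7% of the tested genes with an entry. It was found in 10 of the 15 that fell at 2 to 6 h and in 35 of the 41 that did not pass the test.

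Other letters were searched on both strands of the 300 bases from 250 before to 50 after the start. CTTCCG, the core of ETS factor sites, whose letters can overlap a pyrimidine run, was found in 39 of 56 ribosomal protein promoters (69.6%) in 18.8% of all promoters and in 35.9% of those of the tested genes. AAGATGGC, the core of YY1 sites, was found in 5 (8.93%), against 3.19% of all and 5.48% of tested genes. TATAAA was found in 6 (10.7%), below the 15.7% of all and above the 8.68% of tested genes. GAAANNGAAA, the core of the interferon-stimulated response element, was found in 7 (12.5%), in Rpl4, Rpl5, Rpl27a, Rpl38, Rps7, Rps19 and Rps23, against 3.99% of all and 3.78% of tested genes. Of these 7, only Rpl38 passed the test at 2 to 6 h, and its level fell. TTCNNNGAA, the core of GAS sites, the other interferon element searched, was found in 3 (5.36%). It was found in 9.55% of all and 8.34% of tested genes, and in 0 of the 15 that fell. These matches describe letters in a window, not bound sites.

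The cells carried fibroblast transcripts: Col1a1, a collagen chain, stood between 2774 and 4973 RPKM and Vim, an intermediate filament, between 1925 and 2606. Emr1 (macrophages) and Myod1 (muscle) were listed at 0 in each library, Ptprc (leukocytes) reached at most 0.003 RPKM, and the summed RPKM of the macrophage, endothelial, epithelial, neural and muscle markers stayed at or below 7.81. Libraries held between 83.9 and 268 M counts (M, mega), and the least covered ribosomal protein gene had 1196 counts in a library. Rn45s, the ribosomal RNA precursor, took 3.90% and 2.85% of the counts in the pretreated 0 and 1 h libraries and 0.974% to 1.51% in the other 8. Of 12 interferon-induced genes used as a control, 7 rose at 2 to 6 h, with a median log2 change of 4.33 over the 12.

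The 77 genes took 1.35% of the counts of the naive 0 h library, then 1.41, 1.13, 1.04 and 1.06% at 1, 2, 4 and 6 h. In the pretreated arm the shares were 1.26, 1.34, 1.04, 1.04 and 1.13%. Each 0 or 1 h library was thus above each library from 2 h on, with no overlap. Counting error is small beside these steps: the 95% binomial interval (Wilson's method) of the naive 0 h share ran from 1.343 to 1.348%, and covers counting error only. Without Rn45s in the total the shares were 1.36, 1.43, 1.15, 1.05 and 1.07% in the naive and 1.32, 1.38, 1.05, 1.05 and 1.14% in the pretreated arm, in the same separation. The median RPKM of the 77 genes was 151, 149.6, 113, 116 and 121 in the naive and 136, 146, 109.6, 110.4 and 125 in the pretreated arm. In bulk RNA, fewer cells with high ribosomal protein mRNA and less of it per cell cannot be told apart.

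**Figure D1:**
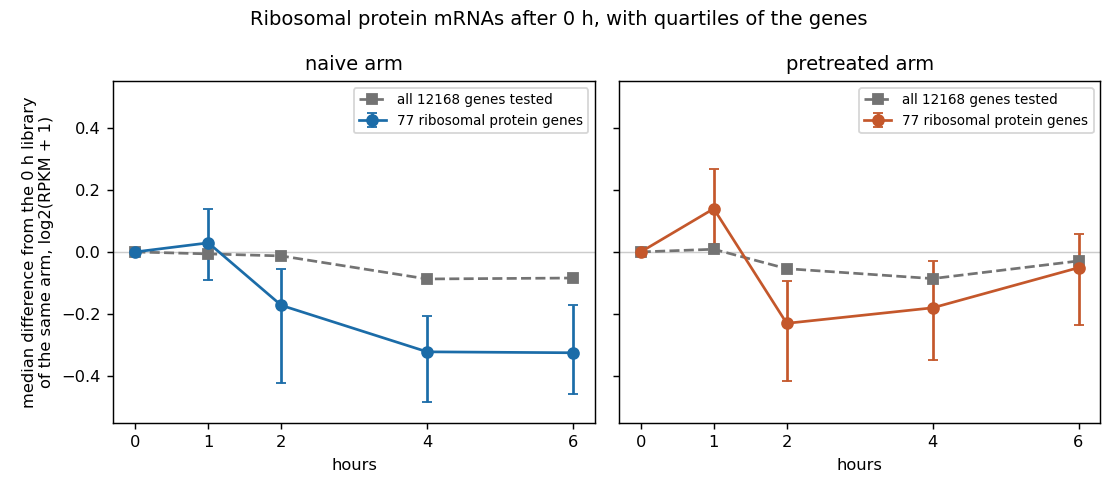
Median difference from the 0 h library of the same arm on the log2(RPKM + 1) scale, against hours, for the 77 ribosomal protein genes (filled circles; bars run between the lower and upper quartile of the genes) and for all 12168 genes tested (grey squares). The naive median is -0.32 at 6 h, and the pretreated median is -0.23 at 2 h and -0.05 at 6 h.

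The genes differed widely in level, although their products are built into the ribosome in about equal number. On the RPKM scale, which allows for transcript length, the mean over the 10 libraries ran from 9.51 to 1262 with a median of 127. Rps26, which lines the channel where mRNA leaves the small subunit, was highest at 1262. It was the highest in 7 libraries, while Rpl41 was in the naive 4 and 6 h and the pretreated 6 h libraries. By the mean, Rpl41, a very short protein of the large subunit, followed at 943, Rplp1, of the acidic stalk that recruits elongation factors, at 940.4, Rpl8, near the peptidyl transferase centre, at 873, and Rpl4, which lines the exit tunnel, at 676. Together these 5 genes made up 29.9% of the summed RPKM. The lowest were Rps15a at 9.51, Rpl21 at 25.3, Rpl9 at 27.6, Rps13 at 36.8 and Rps12 at 38.2. The transcripts used for Rps15a and Rpl21 are long, 5134 and 1856 bases against a median of 703, and RPKM divides by that length. In the naive 0 h library Rps15a had 5675 counts, against 5496 for Rps29, whose transcript of 390 bases stood at 151 RPKM. The low place of Rps15a and Rpl21 thus depends in part on the transcript used. Ribosomal protein genes have many processed copies elsewhere in the genome, and no source used here says how reads that align to several places were counted, so levels compared between genes are uncertain.

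Between 2 and 6 h, 21 of the 77 genes fell and 1 rose against 0 h (edgeR's quasi-likelihood test over both arms, adjusted p under 0.05 by Benjamini-Hochberg over all 12168 genes tested). Among all genes tested, 20.0% fell, 19.9% rose and 39.9% passed in either direction. The 21 are 27.3% of the ribosomal protein genes, near the share of all genes that fell, while a single one rose. The median log2 change of the 77 was -0.17, against -0.01 over all genes tested. A negative value was found for 61 of the 77 and for 6180 of the 12168. Of the 46 large subunit genes 12 fell and 1 rose, and of the 31 small subunit genes 9 fell. Each arm and time had 1 library, and each hour had its own term in the model. The spread behind the p-values is thus how far the arms disagreed in their course over the hours, not how cultures vary. Differences between hours that both arms shared did not enter this spread. The calls depended on the 0 h libraries: without the naive 0 h library 0 of the 77 and 8 of all genes passed, and without the pretreated 0 h library 8 of the 77 fell and 2075 of all genes passed.

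Rps26 fell most. It stood at 2185, 1923, 1019, 909 and 863 RPKM from 0 to 6 h in the naive arm and at 1752, 1189, 945, 904 and 927 in the pretreated arm. The 6 libraries from 2 h on lay below the 4 libraries at 0 and 1 h, and in the pretreated arm the level was already lower at 1 h. The log2 change at 2 to 6 h was -1.01 (SE 0.14, edgeR adjusted p = 0.00530), which leaves 49.7% of the level at 0 h. The transcript (NM_013765) lies on mm10 chr10:128624529-128626506, with 4 exons. Without the naive 0 h library its adjusted p was 0.0593.

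Other small subunit genes that fell include those that touch the mRNA path. Rps10, which sits by the mRNA entry and is marked with ubiquitin on stalled ribosomes, stood at 414, 423, 256, 238 and 229.7 RPKM (naive) and 365, 299.8, 221, 243 and 251 RPKM (pretreated). Its late libraries all lay below its early ones, and the log2 change was -0.63 (SE 0.12, edgeR adjusted p = 0.00838). Rpsa, which is also known as the laminin receptor, stood at 188, 186, 127, 112 and 108 RPKM and at 175, 148, 127, 110.0 and 115 RPKM. Its log2 change of -0.57 (SE 0.10, edgeR adjusted p = 0.00684) again came with no overlap between early and late libraries. Rps27, a zinc finger protein, stood at 102, 80.8, 43.4, 60.9 and 57.0 RPKM (naive) and at 72.8, 76.8, 41.5, 61.8 and 70.9 RPKM (pretreated), lowest at 2 h in both. Its log2 change was -0.60 (SE 0.13, edgeR adjusted p = 0.0130), and without the naive 0 h library it was -0.33. Rps15, whose tail reaches the decoding site, changed by -0.54, Rps16 by -0.41, Rps2 by -0.35 and Rps14 by -0.28 on the log2 scale, each past the test.

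The proteins of the stalk, which bind the GTPases of elongation, differed in size of change. Rplp1 stood at 1298, 1554, 548, 822 and 869 RPKM (naive) and at 1094, 1054, 617, 661 and 887 RPKM (pretreated). Its lowest library was at 2 h in both arms, and its log2 change was -0.65 (SE 0.14, edgeR adjusted p = 0.0129). Its partner Rplp2 stood at 177, 144, 99.9, 99.9 and 119 RPKM and at 128, 147, 111, 109 and 138 RPKM. Here the naive 0 h library stood apart at the top, and the log2 change of -0.37 (SE 0.13, edgeR adjusted p = 0.0523) missed the threshold. Rplp0, the base of the stalk and a common reference gene in quantitative PCR, stood at 576, 597, 548, 460.4 and 458 RPKM and at 546, 583, 465, 436 and 456 RPKM. Its log2 change was -0.19 (SE 0.08, edgeR adjusted p = 0.0883).

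Among the other large subunit genes, Rpl29 fell most. It stood at 152, 188, 88.5, 106 and 95.8 RPKM (naive) and 156, 136, 88.1, 91.7 and 111 RPKM (pretreated); the log2 change was -0.61 (SE 0.12, edgeR adjusted p = 0.0109). Rpl24, in the bridge between the subunits, fell from 141 and 124 RPKM at 0 h to 92.5 and 99.1 RPKM at 6 h. Its log2 change was -0.46 (SE 0.08, edgeR adjusted p = 0.00684). Also lower were Rpl28 with -0.42, Rpl36 with -0.37, Rpl7a with -0.33, Rpl38 with -0.31, Rpl23a with -0.29, Rpl13a with -0.28, Rpl18 with -0.27 and Rpl27 with -0.24. The change of Rpl38 was -0.17 without the naive 0 h library. Rpl13a, which leaves the ribosome to join the GAIT complex that silences inflammatory mRNAs after interferon-gamma, stood at 233, 238, 195, 169 and 169 RPKM and at 219.9, 236, 175, 171 and 189 RPKM. Its late libraries all lay below its early ones.

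**Figure D2:**
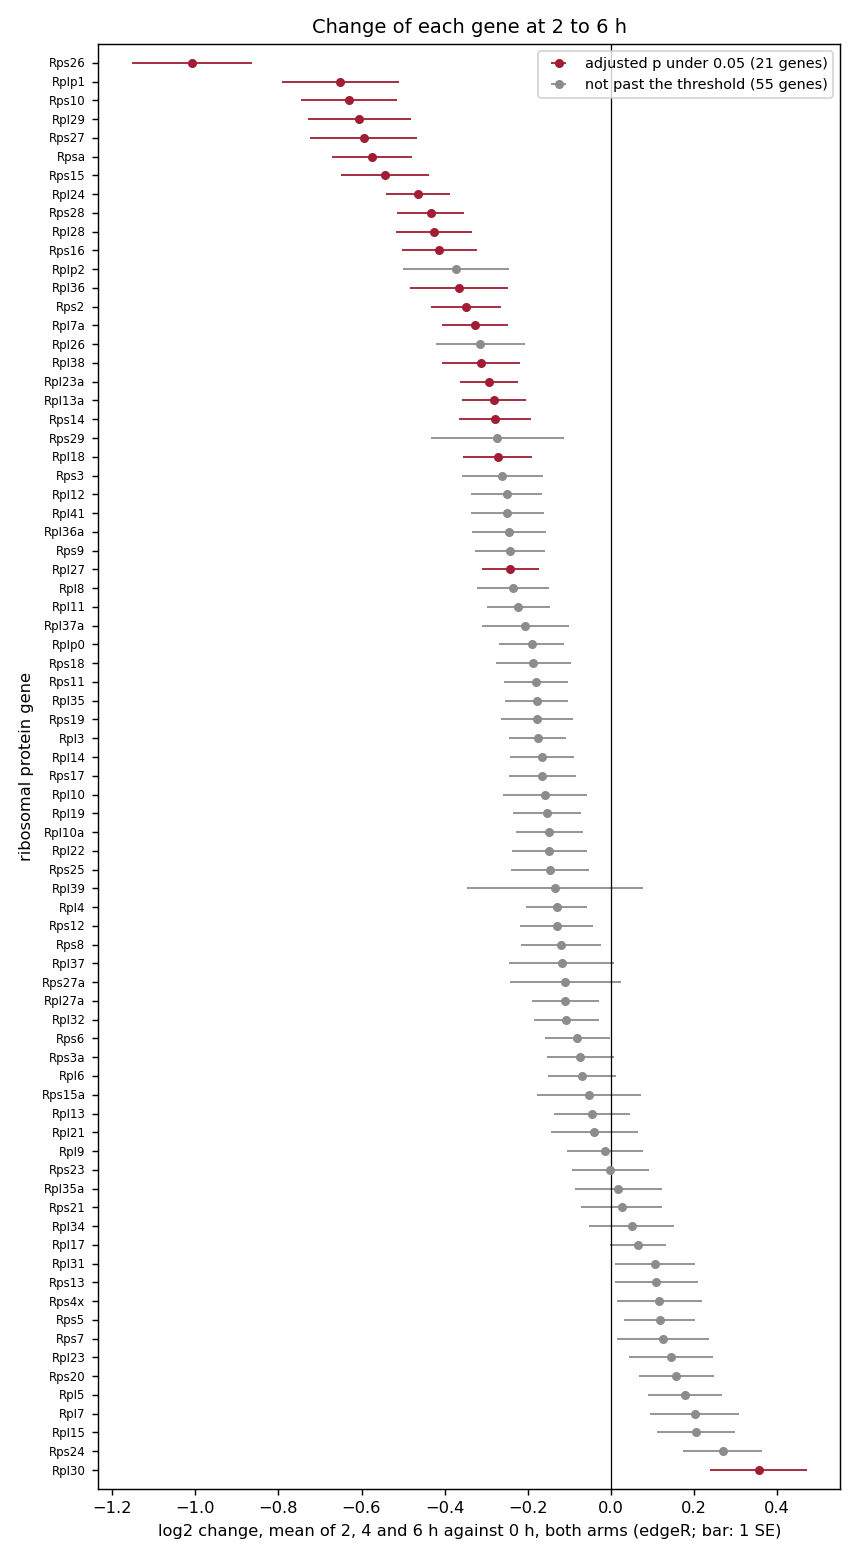
Log2 change of 76 of the 77 genes between 0 h and the mean of 2, 4 and 6 h over both arms, from edgeR, with bars of 1 SE; red points passed the test and grey points did not. The genes spread from -1.01 for Rps26 to 0.36 for Rpl30, and 60 of the 76 points lie left of 0.

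Rpl30, a large subunit protein that also binds selenoprotein mRNAs, was the gene that rose. It stood at 82.2, 104, 102, 120.0 and 124 RPKM (naive) and at 106, 134, 98.7, 110.4 and 135 RPKM (pretreated). In the naive arm each later library was above 0 h, whereas the pretreated 2 h library was the lowest of its arm. The log2 change was 0.36 (SE 0.12, edgeR adjusted p = 0.0457), and the call was kept in 8 of 24 other settings. Without the naive 0 h library the change was 0.20. Rps24, one of the genes mutated in Diamond-Blackfan anaemia, stood at 232, 265, 246, 284 and 329 RPKM and at 249, 311, 224, 271 and 323 RPKM, highest at 6 h in both arms. Its log2 change of 0.27 (SE 0.10, edgeR adjusted p = 0.0598) missed the threshold.

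Rpl5, Rpl11 and Rpl23, which can bind the ubiquitin ligase Mdm2, did not pass the test. Rpl11 stood at 49.5, 59.1, 40.6, 42.8 and 42.5 RPKM (naive) and 54.8, 57.5, 39.1, 43.1 and 48.2 RPKM (pretreated), and its late libraries lay below its early ones (log2 change -0.22, SE 0.08, edgeR adjusted p = 0.0540). Rpl5 stood between 46.3 and 58.9 RPKM (log2 change 0.18, SE 0.09, edgeR adjusted p = 0.146) and Rpl23 between 159 and 223 RPKM (log2 change 0.15, SE 0.10, edgeR adjusted p = 0.279). The values of Rpl5 and Rpl23 overlapped between early and late libraries. Rps27a, made as a fusion with ubiquitin, stood at 72.7, 53.0, 69.9, 49.7 and 52.6 RPKM (naive) and at 58.6, 72.1, 64.2, 56.3 and 58.4 RPKM (pretreated). Its log2 change was -0.11 (SE 0.13, edgeR adjusted p = 0.533), and 0.13 without the naive 0 h library.

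The median RPKM of the 77 genes dropped between 1 and 2 h in both arms. Against 0 h, 0 of the 77 genes passed the test at 1 h (edgeR), where 3 had an unadjusted p under 0.05 and DESeq2 also called 0. Over all genes 0.0% passed edgeR's test, with 1383 at an unadjusted p under 0.05. The 12 interferon-induced control genes, with a median log2 change of 2.48 at 1 h, were not called either, so this test had little power and its count of 0 does not show that the ribosomal protein genes were unchanged. The median log2 change of the 77 at 1 h was 0.09. This grouping of 0 with 1 h was chosen after the values were seen. For 32 of the 77 genes (41.6%) the 6 libraries at 2, 4 and 6 h were all below the 4 libraries at 0 and 1 h, which was so for 11.5% of all genes tested. None of the 77 had all late libraries above all early ones, against 9.35% of all genes. With scaling by the trimmed mean of M values (TMM) the count was 27 of 77 (35.1%), against 7.88% of all genes. The 32 comprise 22 large and 10 small subunit genes. With 0 and 1 h joined as the baseline, 40 of the 77 fell and 0 rose in edgeR's test, where 23.0% of all genes fell.

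**Figure D3:**
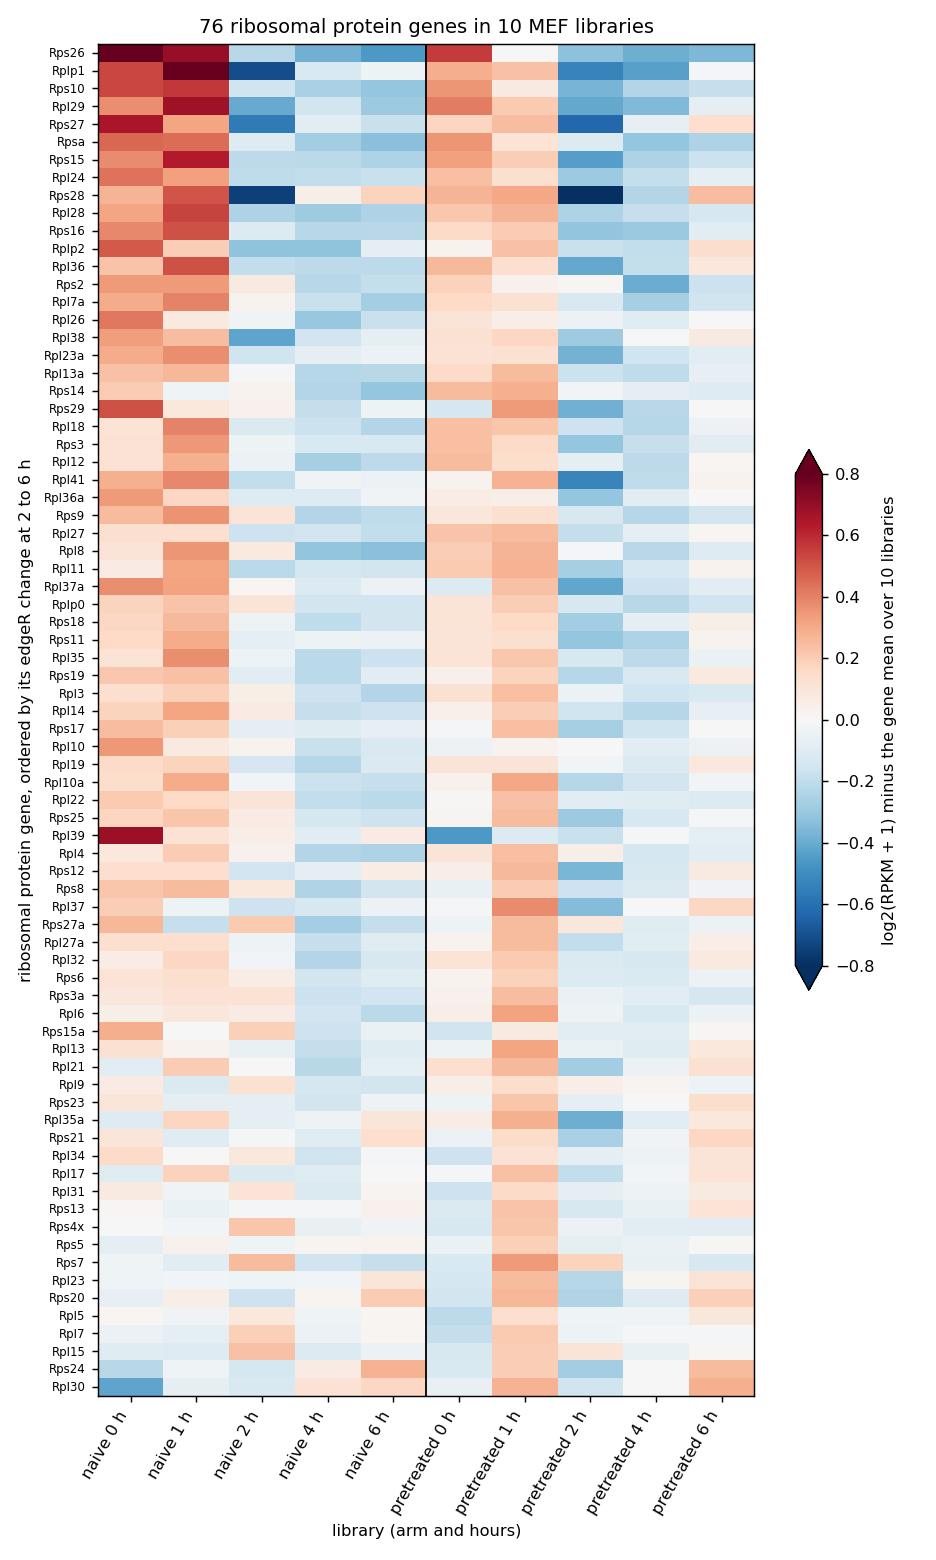
Level of 76 of the 77 genes (rows, ordered by log2 change at 2 to 6 h) in the 10 libraries (columns), as log2(RPKM + 1) minus the mean of the gene over the libraries; red is above and blue below that mean, and the scale is clipped at 0.8. The upper rows are red at 0 and 1 h and blue from 2 h on in both arms, and the 2 h libraries hold the darkest blue cells, in Rps28 and Rplp1.

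Compared library by library on log2(RPKM + 1), which has no test, the naive arm showed 5 of 77 genes at least 0.32 lower on the log2 scale at 1 h (7.48% of all genes), 24 at 2 h (20.8% of all genes), 38 at 4 h (29.6%) and 39 at 6 h (31.7%). The pretreated arm showed 1 lower at 1 h (12.7% of all genes), 29 at 2 h (22.3%), 22 at 4 h (28.1%) and 9 at 6 h (19.8%). From 2 to 6 h the share of the 77 genes that were lower was above that of all genes in the naive arm, while in the pretreated arm it was above at 2 h, close to it at 4 h and below it at 6 h. At 1 h in the pretreated arm 14 genes were at least 0.32 higher (14.6% of all genes). The median difference in the naive arm was 0.03, -0.17, -0.32 and -0.32 at 1, 2, 4 and 6 h, against -0.01, -0.01, -0.09 and -0.08 over all genes. In the pretreated arm it was 0.14, -0.23, -0.18 and -0.05, against 0.01, -0.05, -0.09 and -0.03 over all genes. Under TMM scaling the 4 and 6 h medians of the 77 genes were -0.22 and -0.22 in the naive and -0.08 and -0.03 in the pretreated arm, with medians over all genes within 0.01 of 0 apart from the pretreated 6 h library.

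From 1 to 2 h in the pretreated arm, each of the 77 genes was lower at 2 h, 50 of them by at least 0.32 on the log2 scale, where 18.5% of all genes were lower by that much. The median difference was -0.39, against -0.05 over all genes. It ran from -1.15 for Rps28 to -0.03 for Rps2. In the naive arm 63 of the 77 were lower at 2 than at 1 h, 25 by at least 0.32 (19.9% of all genes). The median was -0.25, against -0.02 over all genes. There the range ran from -1.50 for Rplp1 to 0.39 for Rps27a.

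Over the 5 times, 0 of the 77 genes passed edgeR's test of pretreated against naive, where 1.27% of all genes did. The 12 interferon-induced control genes, with a median log2 difference of 1.39, were not called either. The count of 0 thus does not show that the ribosomal protein genes were alike in the arms. Of the 77, 3 had an unadjusted p under 0.05, as did 2660 of all genes. The 3 were lower in the pretreated arm: Rpl37a with a log2 difference of -0.24, Rpl41 with -0.17 and Rpl23a with -0.17. DESeq2 also called 0. The 77 log2 differences ran from -0.35 to 0.12 with a median of -0.04, and their SEs from 0.05 to 0.17. A difference of more than 2 SEs was not enough to pass: Rpl23a had -0.17 with an SE of 0.055 (edgeR adjusted p = 0.139).

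At 0 h, before interferon-beta was added for the time course, the pretreated library already held interferon-induced transcripts. The 12 control genes summed to 1001 RPKM in it, against 23.2 RPKM in the naive library. It is part of the 0 h baseline of the tests. Against the naive 0 h library, 7 of the 77 were lower by at least 0.32 on the log2 scale (13.4% of all genes). Only 1 was higher by that much (15.5% of all genes). The median difference was -0.11, against 0 over all genes, and 57 of the 77 were lower. Rpl39 stood apart, at 131 RPKM in the naive library and 58.9 RPKM in the pretreated one, a log2 difference of -1.14. It was the one gene of the 77 lower by 2-fold, where 0.838% of all genes were. At 2 h 71 of the 77 were lower in the pretreated library, with 4 lower by at least 0.32 (13.9% of all genes). The median was -0.14, against -0.03 over all genes. At 6 h 67 of the 77 were higher, with none higher by 0.32 (8.88% of all genes). The median was 0.11, against 0.05 over all genes. Under TMM scaling these medians were 0.03 and -0.02. At 1 and 4 h the medians were 0.01 and 0.02, against 0.02 and -0.01 over all genes. The pretreated 0 and 1 h libraries are those with the high share of Rn45s, and Rmrp, a nuclear noncoding RNA, stood at 76.0 and 30.6 RPKM there, against 3.57 to 21.9 RPKM in the other 8. The part of this in the differences between arms was not tested. Without both of these libraries, 16 of the 77 fell and 2 rose at 2 to 6 h, where 12.1% of all genes fell.

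Whether the arms changed differently was tested with an interaction of arm and stimulation (0 h against the later times). It called 0 of the 77 and 0.0% of all genes in edgeR, with 4 of the 77 and 740 of all genes at an unadjusted p under 0.05. The 4 were Rpl39 (1.0), Rplp2 (0.57), Rps27 (0.51) and Rpl10 (0.40), the values being the log2 change of the pretreated minus that of the naive arm. DESeq2 called 1, Rpl39. In edgeR the 12 interferon-induced control genes, with a median of -5.50 in this term, were not called either. Its count of 0 thus does not show that the ribosomal protein genes changed alike in the arms. Rpl39, which lines the exit tunnel and is encoded on the X chromosome, stood at 131, 88.3, 84.6, 76.6 and 85.4 RPKM (naive) and 58.9, 75.4, 71.9, 80.7 and 77 RPKM (pretreated). The 0 h libraries are the highest and the lowest of the 10, and from 1 h on both arms ran between 71.9 and 88.3 RPKM. The edgeR difference was 1.0 (SE 0.19, adjusted p = 0.416). Rpl39, Rpl34 and Rps15a were the 3 of 77 genes (3.9%) whose later libraries all lay below 0 h in one arm and all above it in the other. This held for 2.81% of all genes tested, a similar share. The other X-linked genes did not pass a test. Rpl10, which joins the large subunit last, stood between 76.9 and 111 RPKM, Rpl36a between 34.3 and 54.5 RPKM and Rps4x between 155 and 198 RPKM.

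**Figure D4:**
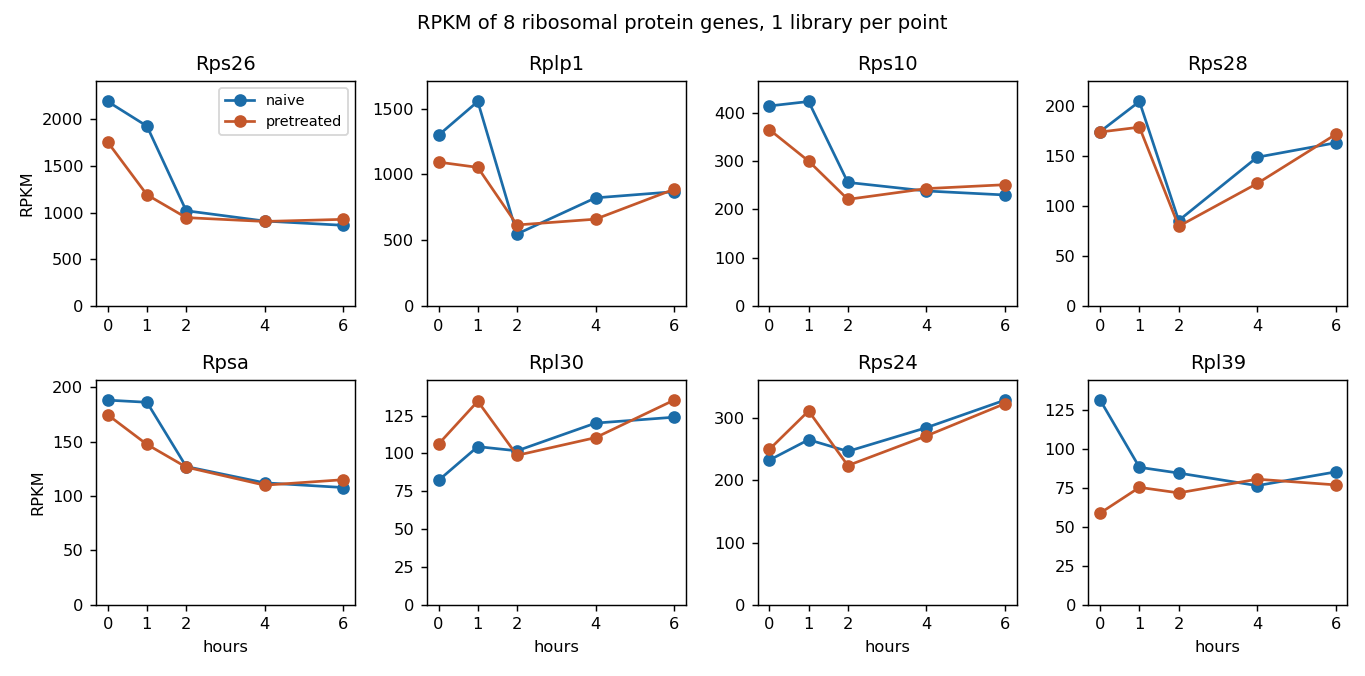
RPKM of 8 ribosomal protein genes against hours, 1 library per point, blue for the naive and orange for the pretreated arm, with axes that start at 0. Rps26, Rps10 and Rpsa are lower from 2 h on, Rplp1 and Rps28 are lowest at 2 h, Rpl30 and Rps24 end above 0 h, and Rpl39 starts at 131 RPKM (naive) and 58.9 RPKM (pretreated).

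The genes moved largely together. In a principal component analysis of the 77 genes the first component held 68.3% of the variance between libraries, a share not computed for all genes. The 4 libraries at 0 and 1 h had positive weights on it and the 6 later ones negative weights. The pretreated 6 h library lay close to 0 (-0.06), and the other later ones ran from -0.22 to -0.40. The second, with 12.3%, set the 2 h libraries of the naive (weight 0.51) and pretreated (0.50) arms against the 6 h libraries (-0.42 and -0.39). Each gene was also set against the median of the 77 in each library. Rps26, Rps28 and Rplp1 departed most from it, with SDs over the 10 libraries of 0.41, 0.38 and 0.37 on the log2(RPKM + 1) scale. Rpl27a, Rps19 and Rps6 followed it most closely, with SDs of 0.04, 0.05 and 0.05. Rps6, whose phosphorylation by the S6 kinases is a common readout of mTOR, stood between 166 and 209.5 RPKM.

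Rps28, which sits next to Rps26 at the mRNA exit, was lowest at 2 h in both arms. It stood at 174, 204, 85.5, 149 and 163 RPKM (naive) and at 174, 179, 79.8, 123 and 172 RPKM (pretreated). Both 2 h libraries were far below the others, and both 6 h libraries were close to 0 h. Its log2 change over 2 to 6 h was -0.43 (SE 0.08, edgeR adjusted p = 0.00871). Without both 2 h libraries it was -0.13 and no longer passed (edgeR adjusted p = 0.301), and 14 of the 77 fell and 2 rose, where 18.1% of all genes fell.

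The size of the difference at 2 h went with transcript length. Lengths of the 77 transcripts ran from 285 to 5134 bases with a median of 703. Across the 77 genes, Spearman's rho between length and the 2 h minus 0 h difference was 0.54 in the naive and 0.38 in the pretreated arm, against 0.09 and 0.16 across all genes tested, and at 6 h it was 0.19 and -0.09. The genes of one comparison share both libraries and are not independent. The 16 genes under 500 bases had a median log2 change at 2 to 6 h of -0.29 and 7 of them fell, the 44 from 500 to under 1000 bases a median of -0.16 with 11 lower and 1 higher, and the 17 longer ones a median of -0.11 with 3 lower. Small nucleolar RNA genes lie inside 30 of the 77 genes (58 of them, in RefSeq). Of these 30 hosts 7 fell, with a median of -0.13, and of the other 47 genes 14 fell, with a median of -0.19. Beside these counts by length and by host, 20.0% of all genes tested fell at 2 to 6 h and 19.9% rose. The part of length in the changes was not tested.

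**Figure D5:**
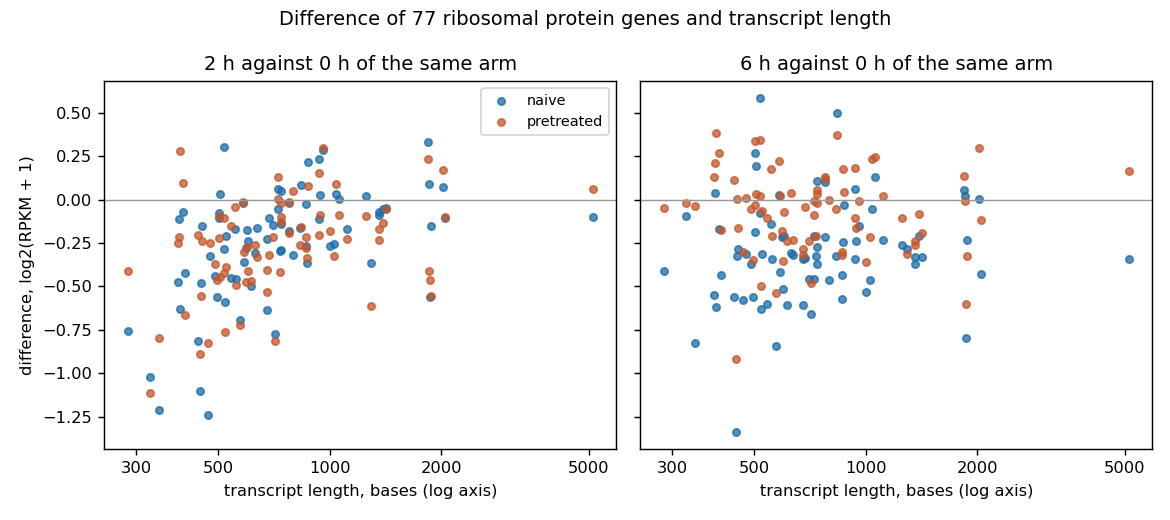
Difference from the 0 h library of the same arm, log2(RPKM + 1), against transcript length on a log axis, for the 77 genes at 2 h (left) and 6 h (right), blue for the naive and orange for the pretreated arm. At 2 h the points of short transcripts lie lower, with a Spearman's rho of 0.54 and 0.38.

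Genes around the ribosome were read in the same test at 2 to 6 h, beside the 20.0% of all genes that fell and 19.9% that rose. Of 76 mitochondrial ribosomal protein genes 25 fell and 6 rose, with a median of -0.21. Mrpl12 (-1.08) and Mrpl34 (-0.84) fell most, Mrps18c (0.61) and Mrpl30 (0.59) rose most, and the most abundant, Mrpl52, fell by 0.80 on the log2 scale. Of 33 ribosome biogenesis factors 9 fell and 1 rose, with a median of -0.21: Tcof1 (-0.74), needed for ribosomal RNA transcription, and Fbl (-0.68), the methyltransferase fibrillarin, fell, and Wdr43 (0.79) rose. Of 19 genes of RNA polymerase I and its factors 8 fell and 2 rose, with a median of -0.29. Polr2e (-0.84), a subunit shared by the polymerases, and Cd3eap (-0.78), a subunit of polymerase I, fell most, and Taf1b (0.73) and Taf1d (0.64) rose.

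Of 21 translation factors and other genes with TOP mRNAs 6 fell and 3 rose, with a median of -0.04. Eef1g (-0.51) and Eif3l (-0.40) fell most, Eif3e (0.67) and Eif3m (0.42) rose most, and the most abundant, the elongation factor gene Eef1a1, had -0.17 (edgeR adjusted p = 0.101). Of 18 genes that control TOP mRNA translation 5 fell and 1 rose. Among them Eif4ebp2 (-0.68) and Eif4ebp1 (-0.53), repressors of cap-dependent translation that mTOR switches off, fell, and Rheb (0.47), an activator of mTOR, rose. Of 6 GAIT complex genes 3 fell, Gapdh (-0.66), Dapk3 (-0.33) and Rpl13a. Fau (-0.50), which encodes a small subunit protein as a fusion, fell too. None of the 4 tested ribosomal protein paralogs Rpl22l1, Rpl36al, Rpl7l1 and Rps27l passed the test, with log2 changes from -0.14 to 0.16, and 1 of 11 small nucleolar RNA host genes fell, Snhg9 (-1.76). Of 5 nuclear noncoding RNAs Malat1 (0.93) and Neat1 (0.69) rose and Rmrp (-2.74) and Rpph1 (-2.63) fell. Of 8 fibroblast markers Thy1 (-0.90) and Fn1 (-0.28) fell, with a summed level of 10243 to 13382 RPKM at 0 and 1 h and 9165 to 12202 RPKM later. Of 5 neural markers Tubb3 (-1.44) fell and Map2 (0.77) rose, with summed levels of 4.86 to 7.81 and 4.65 to 6.47 RPKM. The part of these in the ribosomal protein changes was not tested.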

How the data were processed

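Bowtie, TopHat, Cufflinks 1.2.1 and the build mm10 are named, with no role or order, per the submitters' processing notes. The deposited table gives, per the file headers, an unnormalised count and an RPKM for each of 30646 RefSeq transcripts in each library. The RPKM values were computed by the authors, and no source used here names the counting tool or the use of strand. The 15 transcripts without a gene name held 0.0157% to 0.0193% of a library's counts and were left out. One transcript was kept per symbol, and the test covered 12168 genes, those that reached 1 RPKM in 2 or more libraries.

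Counts were tested with edgeR 4.0.16 (quasi-likelihood, TMM scaling, R 4.3.3) in a model of time and arm, with 4 residual degrees of freedom, and with an arm by stimulation term, which left 3. SEs were taken from the log2 change and its F statistic. P-values are two-sided, adjusted by Benjamini-Hochberg over the 12168 genes, with a threshold of 0.05. Differences of single libraries are on log2(RPKM + 1), which understates the change of low genes, with no test. DESeq2 1.42.0, limma 3.58.1, other scalings, filters, pseudocounts and single libraries left out served as alternatives. The scripts were tested on simulated data. RefSeq promoters were matched by symbol. Transcript lengths were obtained from the ratio of count to RPKM.

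All ribosomal protein genes may be named. Full values went to the 5 highest and 5 lowest in mean RPKM, the 5 largest falls and rises among those called, the 3 most and least variable, the extremes of single-library comparisons, the stalk genes, Rpsa, Rpl13a, Rpl5, Rpl11, Rpl23, Rps27a and the X-linked genes. Rps28, Rpl24, Rps24 and Rpl11 were in part described after their values were seen. The genes and the lists were chosen with earlier results of these data known. 1 ribosomal protein gene and 1 other gene are counted but their values are not reported here.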

Additional observations from a re-analysis of the deposited data

Results flagged for a closer look

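For 3 of the 77 ribosomal protein genes (3.9%), all 4 later libraries were lower than 0 h in one arm and higher in the other. This was so for 2.81% of all genes tested, a similar share. The 3 were Rpl39, Rpl34 and Rps15a, and each was lower than 0 h in the naive and higher in the pretreated arm. In edgeR's arm by stimulation term the difference between the arms was 1.0 for Rpl39 (adjusted p = 0.416), 0.35 for Rpl34 (adjusted p = 0.834) and 0.45 for Rps15a (adjusted p = 0.821) on the log2 scale, so none of the 3 passed. Rpl34 stood at 197, 177, 187, 158 and 175 RPKM in the naive and at 158, 192, 169, 172 and 190.1 RPKM in the pretreated arm. Rps15a stood at 11.8, 9.43, 10.9, 8.31 and 9.09 RPKM and at 8.38, 10.0, 8.8, 8.83 and 9.53 RPKM. In both genes the naive 0 h library was the highest and the pretreated 0 h library the lowest or second lowest of the 10.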

How the results depend on the processing

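Of 36 changes tested in edgeR for a named ribosomal protein gene, 2 turned direction in a setting, both of genes that had not passed: Rps27a at 2 to 6 h ranged from -0.33 to 0.13 as single libraries were left out, the latter without the naive 0 h library, and Rpl23 was -0.0625 with 1 h as the baseline and no 0 h library. Of the 14 that had not passed, 5 did in some setting: Rplp2, Rplp0, Rpl11 and Rps24 at 2 to 6 h and Rpl39 for arm by stimulation. The count of genes that passed at 2 to 6 h, 22 in all and 21 lower, was 34 with upper quartile scaling, all lower (25.3% of all genes lower), 32 lower with library totals (24.3%), and 40, all lower, with 0 and 1 h joined as the baseline, a setting added after the data were seen. DESeq2 gave 29 lower and 2 higher (22.8% of all genes lower), limma on log2(RPKM + 1) 29 lower (24.5%), and no filter on low values 15 lower (10.9%). With 1 h as the baseline and no 0 h library, also added, 25 fell (8.37% of all genes). Upper quartile scaling and limma on quantile-normalised values also moved the share of higher among all called genes from 49.8% to 39.5% and 39.4%, with a median over all genes of -0.07. Leaving out 1 library at a time gave 0 to 26 genes, 0 to 24 of them lower, with the lowest count without the naive 0 h library, then 8 without the pretreated 0 h library and 13 without the naive 6 h library; for the other tests it gave 0 each time. The median log2 change of the 77 stayed between -0.20 and -0.11 over these. Rps26, Rpsa and Rpl24 kept their call in 23 of 24 settings. For arm by stimulation DESeq2 called 1 gene and edgeR 0, and this term could not be fitted without either 0 h library. The causes were not tested. No fit with a replicate block was made, because the labels carry no replicate numbers; time is a term of the model, so the arms were compared within each hour. The SEs of the 77 changes at 2 to 6 h ran from 0.07 to 0.21, which sets what a single gene can show.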
